A study of Mus musculus with 24 samples.

Results

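Stretches of chromatin in which most ATAC-seq intervals had higher values in 2 Smad2 knockout lines than in wild-type mouse embryonic stem cells are described here. They are 7 runs of neighbouring intervals, 10.6 Mb in all, and they were selected on the knockout against wild-type difference itself. Every interval of both deposited tables that lies inside them is a member: 1229 of 299780 intervals without inhibitor and 1106 of 272268 intervals with it, 2335 of 572048 together. The runs are chr12:17709541-21315037 (3.61 Mb), chr5:104112206-105602991 (1.49 Mb), chr13:61585275-62741198 (1.16 Mb), chr3:69098182-69726975 (0.629 Mb), chr2:17864155-18495096 (0.631 Mb), chr10:118873014-119852612 (0.980 Mb) and chr8:75650946-77769675 (2.12 Mb), in coordinates of mm10 (GRCm38). Because the members were chosen for being higher in the knockouts, the knockout against wild-type values below are a description with no test. Gene positions, position classes and the comparison of the knockout lines with each other were not part of that choice.

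ATAC-seq reads out where the Tn5 transposase can insert sequencing adapters, so a higher value at an interval means more accessible DNA there. In mammalian nuclei, accessible sites cluster at gene starts, many of them in CpG islands that stay open in most cell types, and at weaker distal elements inside genes and between them. Neighbouring elements can share a chromatin state over long distances, for example in clusters of zinc finger genes, which are often packed in H3K9me3 heterochromatin together with repeats and satellite DNA. Smad2 is a signal transducer of the Nodal and Activin branch of the TGF-beta family, enters the nucleus with Smad4 and is brought to DNA by partners such as Foxh1.

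E14 embryonic stem cells of the mouse were kept on gelatin in medium with serum and leukemia inhibitory factor (LIF). Wild type (WT) and 2 Smad2 knockouts, Smad2_KO1 and Smad2_KO2, made up the 3 lines, each sampled as a control (Ctrl) and as Paused, after 12 h with 200 nM INK128, an inhibitor of the growth kinase mTOR. Each of the 6 groups had 4 libraries of 50000 cells, 24 libraries in all. The labels do not say how the knockouts were made, whether each is 1 clone, or whether replicates are separate cultures, so the spread between libraries may be technical.

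The 2 treatments were deposited as separate tables with their own intervals and normalization, and values are compared only within a table. Values are normalized reads per interval; reads recovered from them numbered 11.8 to 16.5 M (megareads) per library in Ctrl and 11.5 to 20.0 M in Paused. In Paused every Smad2_KO1 library, at 14.9 to 17.1 M reads, was deeper than every WT library, at 11.5 to 14.8 M; the part of depth in the Paused differences was not tested. The strongest interval at 6 stem cell genes (Pou5f1, Nanog, Sox2, Esrrb, Klf4, Zfp42) had a value of 44.9 to 515 in Ctrl and 71.4 to 599.5 in Paused. Genes of primitive endoderm (166 to 259 and 205 to 291), trophoblast (22.3 to 274 and 102 to 328) and fibroblasts (50.5 to 174 and 26.2 to 285) also had such intervals, so accessibility at these markers does not tell the cell types apart. The strongest interval of Smad2 read 362, 363 and 355 in WT, Smad2_KO1 and Smad2_KO2 in Ctrl and 441, 399.6 and 389 in Paused, and accessibility there does not check the knockout labels.

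The difference KO minus WT is on the scale of log2(value + 1), as the mean of both knockout lines unless a line is named. An interval was tested where at least 4 of the 12 libraries of its table had a value of 10 or more. That left 1037 of the 1229 Ctrl intervals and 963 of the 1106 Paused intervals, with 192 and 143 left out as too weak. In the chromosome 12 and 13 runs only 69.7% and 68.3% of Ctrl intervals passed, against 94.1% of the whole table. The 8 knockout libraries can pass an interval without any WT library, while the 4 WT libraries alone must all reach 10. Weak intervals that are high in the knockouts therefore pass more easily than those high in WT. An interval was called when limma gave an adjusted p under 0.05 for each knockout line against WT, with the same sign. For genes that cross a run's end, counts and sums take only the part inside the run.

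The elements differ in their promoter sequence, and 7 promoters are printed here to show how gene starts of the runs differ from each other; they were chosen after the values were seen. Each runs from 250 bases before to 50 bases after the gene's start, 5′ to 3′ on the gene's strand, from RefSeq (GRCm38.p6), with every CpG in capitals. Kpna4 (chr3:69127043-69127342, minus strand, 27 CpG), Mllt10 (chr2:18064335-18064634, plus strand, 43 CpG) and Zfp996 (chr12:18387241-18387540, plus strand, 25 CpG) are CpG-rich starts with strong signal and overlapping lines.
Kpna4: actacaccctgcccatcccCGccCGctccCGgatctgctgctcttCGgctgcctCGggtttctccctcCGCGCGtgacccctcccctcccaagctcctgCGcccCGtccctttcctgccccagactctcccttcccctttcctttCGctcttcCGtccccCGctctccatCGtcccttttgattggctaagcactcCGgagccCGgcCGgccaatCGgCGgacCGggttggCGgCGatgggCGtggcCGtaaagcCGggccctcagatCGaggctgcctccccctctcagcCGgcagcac
Mllt10: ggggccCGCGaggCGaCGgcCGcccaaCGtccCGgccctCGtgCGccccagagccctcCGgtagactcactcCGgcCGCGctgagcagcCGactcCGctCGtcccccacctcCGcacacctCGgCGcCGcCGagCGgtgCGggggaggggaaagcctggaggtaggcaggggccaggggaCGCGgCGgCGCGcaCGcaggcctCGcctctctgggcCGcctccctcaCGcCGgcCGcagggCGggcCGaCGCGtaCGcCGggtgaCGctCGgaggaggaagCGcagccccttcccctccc
Zfp996: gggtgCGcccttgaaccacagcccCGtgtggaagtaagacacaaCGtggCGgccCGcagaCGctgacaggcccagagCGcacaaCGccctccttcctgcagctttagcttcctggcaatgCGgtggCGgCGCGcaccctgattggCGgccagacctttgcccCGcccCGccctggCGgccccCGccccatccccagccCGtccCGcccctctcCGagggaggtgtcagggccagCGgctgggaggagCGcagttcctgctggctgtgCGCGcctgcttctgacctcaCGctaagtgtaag

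Zfp935 (chr13:62466763-62467062, minus strand) and Zfp951 (chr5:104859978-104860277, minus strand) are zinc finger gene starts with 8 CpG each. They are shown side by side because the start of Zfp935 read alike in all lines, while that of Zfp951 was higher in every knockout library than in every WT library.
Zfp935: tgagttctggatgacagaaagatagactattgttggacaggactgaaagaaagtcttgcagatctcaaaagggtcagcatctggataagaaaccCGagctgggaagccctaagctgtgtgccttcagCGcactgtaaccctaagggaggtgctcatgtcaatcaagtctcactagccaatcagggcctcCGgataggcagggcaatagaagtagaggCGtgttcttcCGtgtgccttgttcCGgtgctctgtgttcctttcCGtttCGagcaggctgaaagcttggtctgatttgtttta
Zfp951: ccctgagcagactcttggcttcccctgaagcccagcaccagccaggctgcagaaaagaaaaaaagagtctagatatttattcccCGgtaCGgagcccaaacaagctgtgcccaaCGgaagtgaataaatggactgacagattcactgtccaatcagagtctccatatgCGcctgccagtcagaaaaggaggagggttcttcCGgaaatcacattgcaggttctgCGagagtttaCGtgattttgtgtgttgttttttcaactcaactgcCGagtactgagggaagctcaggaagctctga

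H2al2a (chr2:17996909-17997208, minus strand, 0 CpG) and Dmp1 (chr5:104197325-104197624, plus strand, 7 CpG) are weak, CpG-poor starts of genes of other tissues whose group means were higher in the knockouts. The intervals of H2al2a in both tables and that of Dmp1 in Paused lie just beyond the printed end of their windows, within 500 bases of the start. The Dmp1 interval of Ctrl reaches into its window.
H2al2a: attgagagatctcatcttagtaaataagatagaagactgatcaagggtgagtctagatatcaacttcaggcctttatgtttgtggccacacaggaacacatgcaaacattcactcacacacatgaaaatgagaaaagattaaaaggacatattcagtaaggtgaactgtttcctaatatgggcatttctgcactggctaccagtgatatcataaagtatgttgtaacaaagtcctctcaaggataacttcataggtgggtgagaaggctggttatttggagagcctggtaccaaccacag
Dmp1: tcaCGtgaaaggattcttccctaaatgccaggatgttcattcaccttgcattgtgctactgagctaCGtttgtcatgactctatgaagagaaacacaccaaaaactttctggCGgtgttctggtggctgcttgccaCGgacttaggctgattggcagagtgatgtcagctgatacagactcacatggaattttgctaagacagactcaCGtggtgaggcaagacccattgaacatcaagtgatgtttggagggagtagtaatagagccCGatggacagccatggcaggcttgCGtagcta

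Every run was more open in the knockouts in both treatments, by a modest amount spread over many weak intervals. In Ctrl the median difference was 0.42 for the chromosome 12 run, 0.34 for chromosome 5, 0.42 for chromosome 13, 0.22 for chromosome 3, 0.44 for chromosome 2, 0.32 for chromosome 10 and 0.27 for chromosome 8. In Paused the same runs gave 0.40, 0.30, 0.44, 0.51, 0.50, 0.49 and 0.43. The medians over all tested intervals were 0.08 in Ctrl and 0.12 in Paused, so each run stood above its table's own small shift. Of the tested run intervals, 817 of 1037 (78.8%) in Ctrl and 765 of 963 (79.4%) in Paused were above 0, against 58.9% and 60.9% of the tables. Reads summed over a run were 1.07 to 1.23 times WT in Ctrl and 1.10 to 1.23 times WT in Paused. Counted only over intervals at or above the table's median level, the 14 run medians were 0.064 to 0.38. The chromosome 5 run then had 0.064 in Ctrl and 0.10 in Paused, the Ctrl runs of chromosomes 2 and 8 had 0.23 and 0.17, and the Paused runs of chromosomes 12, 13, 3, 2 and 8 had 0.24, 0.27, 0.21, 0.19 and 0.20. As log2 ratios of summed values the 14 runs gave 0.13 to 0.29, the Paused chromosome 3 run 0.15.

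In Ctrl 167 run intervals (16.1%) were called higher, where 3.95% of all tested intervals were called, and 13 (1.25%) lower, where 3.2% were. In Paused 269 (27.9%) were called higher, against 9.01%, and 19 (1.97%) lower, against 4.92%. All 8 knockout libraries lay above all 4 WT libraries at 157 run intervals in Ctrl (4.16% of the whole table did) and at 204 in Paused (7.25%). They lay below all WT libraries at 15 in Ctrl (3.32%) and 20 in Paused (4.2%). The runs were selected on this contrast, so nothing is read from these shares beyond the description. Without library 2 of both knockout lines the run calls were 101 higher and 7 lower in Ctrl, and 159 and 6 in Paused. With DESeq2 size factors in place of the authors' scaling they were 135 and 21 in Ctrl and 192 and 34 in Paused. With DESeq2 on the recovered reads they were 91 and 7, and 147 and 12; with the 8 knockout libraries as 1 group they were 330 and 32, and 423 and 43. Across the whole table, the DESeq2 size factors turned 11132 higher and 9027 lower calls into 7883 and 13589 in Ctrl. In Paused they turned 23477 and 12816 into 15418 and 23099.

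The level of a run in a library is given here as the median over its tested intervals of the log2 value minus that interval's mean over the 12 libraries. In the chromosome 12 run, Ctrl levels were -0.20, -0.23, -0.27 and -0.30 in WT, 0.23, 0.21, 0.18 and 0.07 in Smad2_KO1 and 0.15, 0.16, 0.16 and 0.07 in Smad2_KO2. The groups did not overlap, and the lowest knockout library was 0.27 above the highest WT library. In the chromosome 5 run they were -0.16, -0.17, -0.20 and -0.20 in WT, 0.16, 0.17, 0.10 and 0.06 in Smad2_KO1, and 0.10, 0.19, 0.13 and 0.12 in Smad2_KO2. The chromosome 8 run was the exception: WT read -0.12, -0.06, -0.16 and -0.24, Smad2_KO1 0.18, 0.18, 0.15 and 0.01, and Smad2_KO2 0.12, 0.18, -0.08 and 0.01. There the third Smad2_KO2 library lay just under the second WT library. In 13 of the 14 combinations of run and treatment every knockout library was above every WT library. The runs were selected on this contrast, so such separation is in part fixed by the selection and nothing is read from that count. Replicate 4 of Smad2_KO1 was the lowest of its group in 7 of 7 Ctrl runs, and replicate 4 of Smad2_KO2 in 7 of 7 Paused runs.

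**Figure D1:**
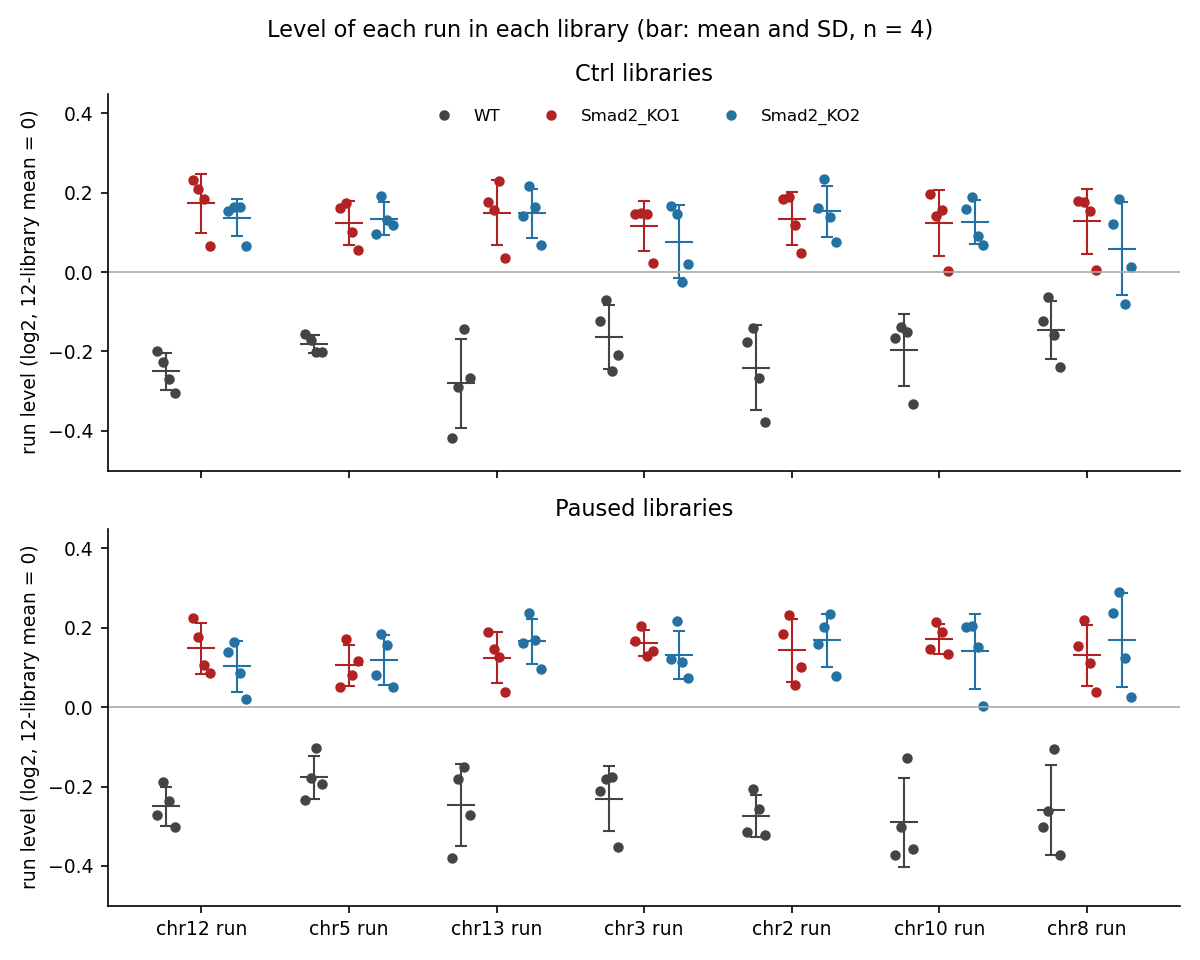
Level of each run (log2, relative to the mean of the 12 libraries of its table) by library, Ctrl and Paused in separate panels; points are libraries, and marks with bars are group means and SD (n = 4). Knockout libraries lie above WT libraries in each run, with an overlap only in the chromosome 8 run of Ctrl.

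The chromosome 12 run was the longest and was poor in intervals, with 81.5 per Mb in Ctrl against 117 in the whole table. It starts in Hpcal1, a neuronal calcium sensor gene, ends in Cpsf3, a subunit of the pre-mRNA cleavage and polyadenylation complex, and holds mostly predicted genes between them. Of its 25 protein-coding genes, 19 have Gm or LOC symbols, that is 76.0%, against 6.70% of all protein-coding genes in the gene table. Whether these genes are near-identical copies was not measured, and how reads were shared among any such copies is uncertain. Here and below, the largest rise or fall is ranked by the smaller of the differences of the 2 knockout lines. The largest rise of this run in Ctrl lies in Gm38702 and read 8.54, 9.85, 5.48 and 5.39 in WT, 26.5, 20.6, 27.2 and 13.9 in Smad2_KO1 and 16.0, 27.3, 22.3 and 16.1 in Smad2_KO2. All knockout libraries were above all WT libraries there, with differences of 1.46 and 1.37 (SE 0.28). The WT values there are all under 10, so the interval passed the filter only through knockout libraries. Asap2, which encodes an Arf GTPase-activating protein, carried 4 called rises of 29 tested intervals in Ctrl and 10 of 31 in Paused, and no fall. Its summed values were 1180 ± 71.2, 1389 ± 66.4 and 1371 ± 53.1 (WT, Smad2_KO1, Smad2_KO2; SD, n = 4).

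At the left end of that run, the part of Hpcal1 inside the run did not share the rise. Its intervals had a median of 0.07 in Ctrl, with 1 of 20 tested called higher and 1 lower. In Paused the median was -0.06, with 2 of 18 called higher and 3 lower. In Ctrl its sum was level, at 998 ± 37.7 in WT, 983 ± 64.9 in Smad2_KO1 and 1018 ± 27.8 in Smad2_KO2; Paused gave 1090 ± 29.8, 975 ± 28.4 and 957 ± 27.2. An interval inside it had the largest fall of the run in both tables. In Ctrl (12:17733134-17733334) it read 34.2, 43.9, 40.5 and 62.5 in WT, 21.4, 23.6, 34.7 and 18.5 in Smad2_KO1 and 18.0, 22.8, 24.4 and 23.1 in Smad2_KO2. A Smad2_KO1 library reached into the WT range at that interval.

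The chromosome 5 run spans Sparcl1 to Lrrc8c, and its shift sits in the middle. Zfp951, a zinc finger gene, had the most called rises of the run in both tables. The values summed over Zfp951 were 302 ± 25.9 in WT, 699.6 ± 57.8 in Smad2_KO1 and 709.6 ± 62.0 in Smad2_KO2 in Ctrl, and 329 ± 36.4, 713 ± 47.9 and 699.9 ± 22.7 in Paused (SD, n = 4). Of its 20 tested intervals, 14 were called higher in Ctrl and 11 in Paused, and none lower. Its strongest rise, inside the gene, read 6.41, 13.4, 12.1 and 7.55 in WT, 46.2, 63.7, 36.5 and 39.3 in Smad2_KO1 and 53.1, 42.8, 37.2 and 36.2 in Smad2_KO2. The lowest knockout value was well above the highest WT value, and the differences were 2.15 and 2.03 (SE 0.22). The authors' deposited table gives this interval a log2 fold of 1.93 for the 8 knockout libraries against WT.

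The start of Zfp951, whose promoter is printed above, moved with its body. In Ctrl it read 57.7, 64.5, 59.1 and 50.7 in WT, 135, 136, 116 and 134 in Smad2_KO1 and 104, 139, 126 and 152 in Smad2_KO2, a difference of 1.16 and 1.15 (SE 0.13). In Paused it read 69.1, 82.7, 66.9 and 75.5 in WT, 130.2, 158, 149 and 140.0 in Smad2_KO1 and 134, 151.5, 131 and 140.0 in Smad2_KO2. The WT and knockout libraries did not overlap in either table. Its neighbour Gm20385 had all 3 tested intervals called higher in Ctrl, with sums of 156 ± 19.9, 321 ± 22.7 and 312 ± 19.0.

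Pkd2, which encodes the polycystin-2 cation channel, had sums of 565 ± 64.1, 654 ± 25.3 and 672 ± 27.8 in Ctrl and 2 of 14 tested intervals called higher. In Paused its sums were 426 ± 24.9, 548 ± 21.8 and 553 ± 28.1, with 5 of 12 called higher. The bone and tooth matrix genes of its left side (Dspp, Dmp1, Ibsp, Mepe and Spp1) had 14 tested intervals in Ctrl, with a median of 0.13 and 1 called higher, and 10 in Paused, with a median of 0.22 and 2 called higher. In Paused the weak start of Dmp1, a regulator of mineralisation, read 4.32, 5.37, 8.63 and 1.32 in WT. It read 6.65, 9.97, 17.3 and 12.9 in Smad2_KO1 and 19.0, 9.00, 10.1 and 6.56 in Smad2_KO2, so the groups overlapped. The WT values there are all under 10, so the interval passed the filter only through knockout libraries. The guanylate-binding protein genes Gbp8, Gbp9, Gbp4, Gbp10 and Gbp6, interferon-induced GTPases, had 6 tested intervals in each table, with medians of -0.27 and -0.08, 0 called higher, and 1 called lower in Ctrl. Lrrc8b and Lrrc8c, subunits of volume-regulated anion channels, had 17 tested intervals in Ctrl (median 0.14, 1 higher) and 18 in Paused (median 0.33, 4 higher and 1 lower).

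The strongest interval of the chromosome 5 run, 1969 bp from Spp1 (osteopontin), was lower in the knockouts. In Paused it read 498, 557, 497 and 542 in WT, 392, 333, 346 and 398 in Smad2_KO1 and 376, 342, 382 and 424 in Smad2_KO2. Every knockout library was below every WT library, and the differences were -0.51 and -0.46 (SE 0.08). In Ctrl the differences were -0.18 and -0.30 (SE 0.08), with WT values of 509 to 608 and knockout values of 404 to 500.4. The largest fall of that run in Paused lies 10434 bp from Lrrc8b and read 36.7, 31.1, 110 and 84.8 in WT, against 9.06 to 11.9 in Smad2_KO1 and 9.85 to 18.0 in Smad2_KO2. WT replicates 3 and 4 were far above replicates 1 and 2 there.

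The chromosome 13 run holds the zinc finger genes Zfp808, Zfp935 and Zfp934, and 22 of its 41 genes are pseudogenes (53.7%). Of its 11 protein-coding genes, 7 have Gm or LOC symbols. Gm3604 had sums of 508 ± 39.7, 689 ± 13.0 and 666 ± 38.2 in Ctrl and of 492 ± 16.6, 710 ± 24.5 and 687 ± 51.7 in Paused. The interval with the largest rise lies in it and was almost empty in WT, at 2.14, 1.79, 3.29 and 3.24, against 20.5, 13.4, 22.5 and 13.9 in Smad2_KO1 and 14.0, 11.8, 14.9 and 16.1 in Smad2_KO2. Few reads stand behind the WT values, which are all under 10, so this interval also passed the filter only through knockout libraries. Zfp808, another zinc finger gene, had sums of 295 ± 13.5, 395 ± 27.2 and 391 ± 11.7, with 3 of 9 tested intervals called higher in Ctrl and 4 of 7 in Paused. The start of Zfp935, the strongest interval of the run, read 351, 406, 318 and 366 in WT, 362, 349, 364 and 351 in Smad2_KO1 and 319, 324, 350 and 345 in Smad2_KO2, so the groups overlapped throughout.

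The 6 named zinc finger genes of the runs (Zfp33b, Zfp951, Zfp996, Zfp808, Zfp935 and Zfp934) together had 48 tested intervals in Ctrl, with a median difference of 0.85 and 21 called higher and 0 lower. In Paused they had 43, with a median of 0.94, and 20 higher and 1 lower. All run intervals gave medians of 0.35 and 0.45. Of them 16.1% in Ctrl and 27.9% in Paused were called higher, against 3.95% and 9.01% of the tables. Called lower were 1.25% and 1.97% of run intervals, against 3.2% and 4.92% of the tables. Zfp951 alone supplied 14 and 11 of those rises. This list was drawn up with results of these data known, and all of its members lie in runs chosen for being higher.

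The chromosome 3 run holds 5 protein-coding genes, and its called rises in genes sit in Ppm1l, a protein phosphatase 2C family gene. Ppm1l had 5 of 49 tested intervals called higher in Ctrl and 15 of 48 in Paused, none lower, with sums of 1438 ± 91.1, 1672 ± 96.3 and 1658 ± 94.5 in Ctrl and 1600.0 ± 31.6, 1961 ± 62.5 and 1902 ± 78.2 in Paused. Kpna4 (importin alpha 3), Nmd3 (an export adaptor of the large ribosomal subunit), B3galnt1 and Arl14 had no called interval inside the run in either table. Kpna4 and Nmd3 cross the run's ends. The start of Kpna4, the strongest interval of the run, read 598, 541, 432 and 499 in WT, 523, 403, 565 and 576 in Smad2_KO1 and 520.1, 491, 477 and 503 in Smad2_KO2 in Ctrl.

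The chromosome 2 run had the most intervals per Mb, 225 in Ctrl, and covers Mllt10 and Dnajc1. Mllt10, a cofactor of the H3K79 methyltransferase Dot1l and a partner in leukemia fusions, had sums of 1571 ± 79.6, 1879.9 ± 61.5 and 1846 ± 66.3 in Ctrl, with 6 of 44 tested intervals called higher and 1 lower, and 12 of 43 higher and 1 lower in Paused. Dnajc1, an endoplasmic reticulum J protein gene, had 3 of 24 higher in Ctrl and 6 of 23 in Paused. An interval in Mllt10 that is weak in WT had the largest rise of the run in Paused: 4.32, 4.29, 10.8 and 2.65 in WT, 19.9, 22.7, 18.1 and 15.9 in Smad2_KO1 and 18.0, 26.2, 18.0 and 16.4 in Smad2_KO2. The starts of both genes were level, the one of Mllt10 at 456, 451, 346 and 487 in WT against 423 to 517 in the knockouts. H2al2a, a testis histone variant gene, has a single weak interval, which read 13.9, 9.85, 13.1 and 7.55 in WT, 21.4, 23.6, 20.6 and 23.1 in Smad2_KO1 and 18.0, 20.9, 12.8 and 17.1 in Smad2_KO2 in Ctrl.

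In the chromosome 10 run the largest rise was intergenic, 14057 bp from Grip1, the gene of a glutamate receptor scaffold protein. It read 9.61, 16.1, 10.9 and 9.71 in WT, 35.0, 28.8, 41.2 and 26.6 in Smad2_KO1 and 36.1, 32.8, 59.5 and 44.3 in Smad2_KO2 in Ctrl, with differences of 1.44 and 1.80 (SE 0.22) and no overlap. Grip1 runs past the right end of the run. Its part inside the run had 7 of 57 tested intervals called higher and 1 lower in Ctrl. In Paused that part had 11 of 53 higher and 2 lower. Cand1, which exchanges the substrate receptors of cullin ubiquitin ligases, had sums of 754 ± 62.4, 879.9 ± 43.3 and 861 ± 12.4 in Ctrl, while its start was level. Of the 22 genes of this run only 3 are protein-coding, and 16 are long noncoding RNA genes.

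The chromosome 8 run had the fewest intervals per Mb, 69.9 in Ctrl. Arhgap10, a GTPase-activating protein gene, had 6 of 44 tested intervals called higher and 1 lower in Ctrl and 20 of 45 higher and 1 lower in Paused, with Paused sums of 1386 ± 42.0, 1747 ± 87.8 and 1735 ± 88.9. The interval with the largest fall of the Ctrl runs is also in Arhgap10: 21.4, 16.1, 41.6 and 45.3 in WT, 6.84, 9.25, 5.62 and 8.09 in Smad2_KO1 and 5.01, 15.5, 6.37 and 6.04 in Smad2_KO2. WT replicates 3 and 4 were again the highest. Nr3c2 (the mineralocorticoid receptor) and Ednra (the endothelin receptor type A) had 26 tested intervals in Ctrl, with a median of 0.24, 4 called higher and 0 lower, all in Nr3c2, and 31 in Paused, with a median of 0.47 and 5 called higher. Ednra was level, at 270.3 ± 17.0, 266 ± 8.14 and 262 ± 46.7 in Ctrl.

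Across the 7 runs there were 218 genes, of which 74 are protein-coding, 57 long noncoding RNA genes and 70 pseudogenes (32.1%, against 21.2% of the gene table). An interval lay in or within 1000 bases of 59 of the protein-coding genes in Ctrl and 60 in Paused. At least 1 called rise lay at 29 of them in Ctrl and 35 in Paused, and a called fall at 6 and 9. That is 49.2% and 58.3% with a rise, against 20.1% and 36.5% of all protein-coding genes with an interval, and 10.2% and 15.0% with a fall, against 16.5% and 27.2%. These calls are from the contrast that chose the runs, so nothing is read from the shares. The cytokine genes and Hmox1, Mcm5, Gab1, Smarca5, Inpp4b and Usp38, looked for as neighbours, lie outside the runs.

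Weak elements away from gene starts had the larger differences. Intervals within 500 bases of a gene start had a median difference of 0.04 in Ctrl (48 intervals) and 0.02 in Paused (44). Intervals in the bodies of protein-coding genes gave 0.36 (461) and 0.53 (446), those in other genes 0.37 (105) and 0.35 (107), and those between genes 0.39 (423) and 0.43 (366). In the whole tables gene starts had medians of -0.05 and -0.11 and the other classes 0.08 to 0.09 in Ctrl and 0.11 to 0.15 in Paused. Gene starts had the lowest median in the runs as in the tables, and each class had a higher median in the runs than in its table.

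Median differences were also lower at stronger intervals. Intervals were split into weak, middle and strong at the values that divide the whole table into 3 equal parts by mean level, which are 16.2 and 35.4 in Ctrl and 18.2 and 41.3 in Paused. In the runs the weak, middle and strong intervals had medians of 0.48, 0.37 and 0.15 in Ctrl and 0.59, 0.50 and 0.12 in Paused. The tables gave 0.20, 0.13 and -0.03, and 0.30, 0.19 and -0.06. Strong intervals away from gene starts had 0.18 in both treatments, against 0.04 and -0.01 for strong gene starts. Of the weak, middle and strong run intervals, 7.73%, 21.4% and 21.3% were called higher in Ctrl, against 2.38%, 5.06% and 4.4% of the table. In Paused these were 21.7%, 36.3% and 26.3%, against 7.73%, 12.2% and 7.08%. The strong intervals away from gene starts were called higher in 23.3% and 29.1%. Adding 1 to each value understates the difference of weak intervals. Weak intervals can also pass the filter through knockout libraries alone, and the part of this in their medians was not tested.

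**Figure D2:**
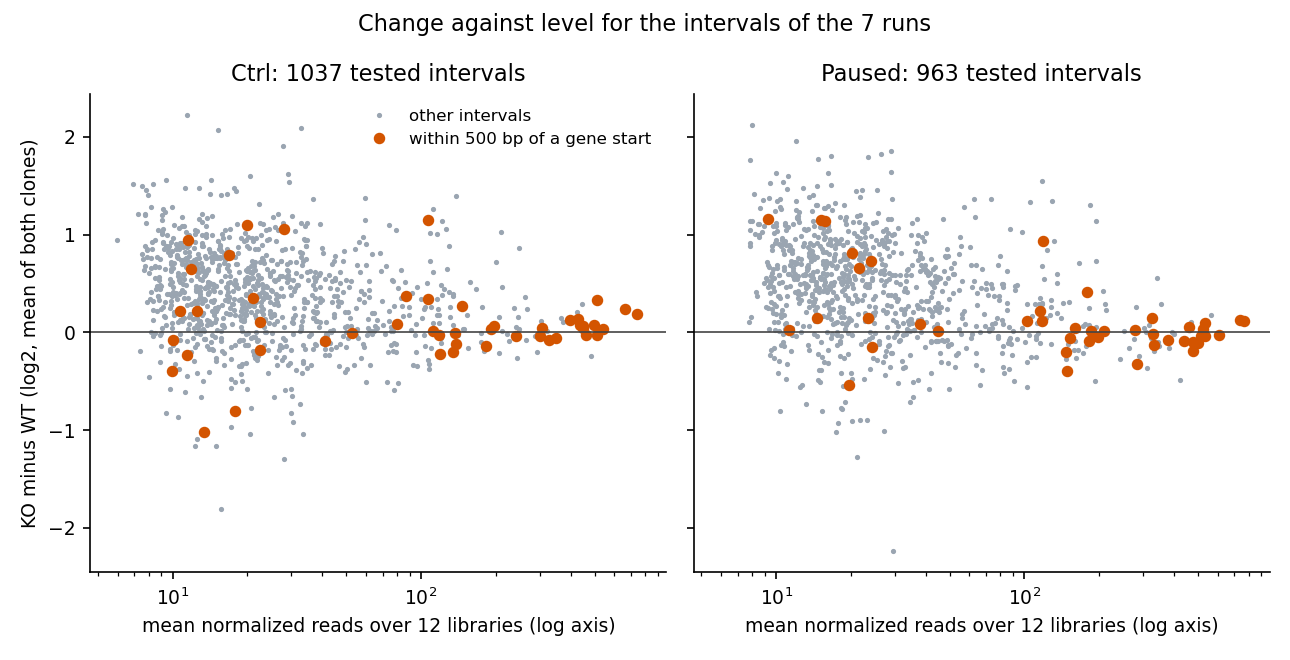
Mean level of each tested run interval (log axis, normalized reads) against KO minus WT (log2), Ctrl and Paused in separate panels, with intervals at gene starts marked in orange. Weak intervals spread mostly above 0, and strong gene starts lie close to 0.

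Starts were also divided by their CpG content. In Ctrl the 23 starts with 10 or more CpG in the printed window length had a median of 0.04 with 1 called higher (1700030C10Rik), and the 25 with fewer had a median of 0.04 with 3 higher (Zfp951, Gm20385 and Grip1os1). Among all starts of the table, 0.621% of CpG-rich and 3.91% of CpG-poor starts were called higher. In Paused the CpG-rich starts had a median of -0.03 with 2 called lower (Cpsf3 and Lrrc8b), and the 21 CpG-poor ones a median of 0.14 with 6 higher. Among all starts there, 11.6% of the CpG-rich ones were called lower, and 8.79% of CpG-poor starts were called higher and 8.74% lower. The start of Lrrc8b in Paused read 219, 151, 127 and 224 in WT and 121 to 153 in the knockouts, so these groups overlapped. Motifs of 2 factors were searched on both strands of the 121 promoters of the runs. The Foxh1 motif AATCCACA was in 0 of them and in 281 of all 32851 promoters (0.855%). The paired Smad box GTCTAGAC was in 0 and in 70 (0.213%).

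**Figure D3:**
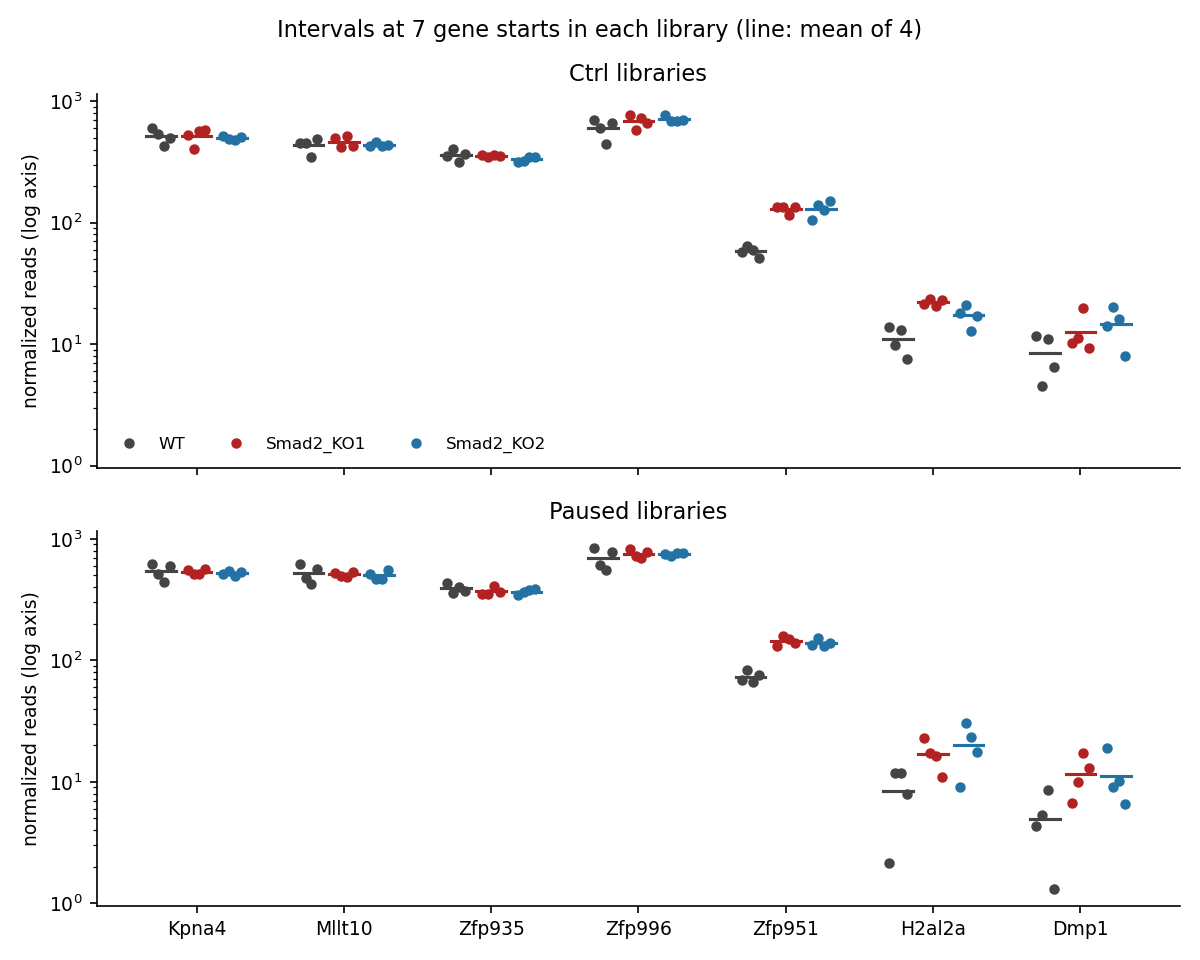
Normalized reads at 7 gene starts by library and line, Ctrl and Paused. The starts of Kpna4, Mllt10, Zfp935 and Zfp996 overlap between lines, while the WT libraries of Zfp951 lie below all knockout libraries.

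The ends of the runs were set by the selection, so a lower flank is in part fixed by it, and the flank values are a description. Flanks of the same length as each run, on both sides, had a median of 0.07 over 2385 tested intervals in Ctrl and 0.11 over 2227 in Paused, close to the tables' own medians. In Ctrl 100 flank intervals were called higher and 96 lower, 4.19% and 4.03%. In Paused these were 221 and 124, 9.92% and 5.57%. The runs of chromosomes 12, 5 and 8 had flank medians of -0.01 to 0.07 in Ctrl. Some flanks shared the shift: the left flank of chromosome 13 had 0.22 in Ctrl and 0.37 in Paused, the left flank of chromosome 2 had 0.24 in both, the right flank of chromosome 10 had 0.24 and 0.30, and the right flank of chromosome 3 had 0.21 in Ctrl, against 0.22 in its run. The right flank of chromosome 13 was lower in the knockouts, at -0.07 in both treatments. At the run ends, the 14 last intervals inside had a median of 0.16 in Ctrl and 0.37 in Paused, and the 14 first ones outside -0.06 and -0.01.

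Within the runs the shift was uneven. Each run was divided into 6 segments of equal length. In the chromosome 5 run segment 3, from Gm31255 to Zfp951, had a median of 1.00 in Ctrl and 1.02 in Paused, and segment 5, with Gbp9, Gbp4, Gbp10 and Gbp6, had -0.20 and -0.26. In the chromosome 13 run segments 3 to 6 gave 0.67, 0.57, 0.52 and 0.32 in Ctrl. In Paused they gave 0.71, 0.44, 0.31 and 0.18. Over these segments the medians decreased from Gm3325 toward Gm36298 in both treatments. Segments 1 and 2 of that run were nearly empty. They had medians of -0.14 and 0.26 in Ctrl (5 and 3 tested intervals) and 0.04 and -0.24 in Paused (2 and 1). In the chromosome 8 run segments 3 to 6 gave 0.23, 0.36, 0.28 and 0.31 in Ctrl. In Paused they gave 0.68, 0.55, 0.59 and 0.46. Segment 2 gave 0.01 in Ctrl and 0.00 in Paused. Neither segment 2 nor segment 3 holds a protein-coding gene. In the chromosome 12 run the lowest of the 6 segments had 0.33 in Ctrl and 0.29 in Paused, although segments 2 and 4 rest on 10 and 7 intervals in Ctrl.

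**Figure D4:**
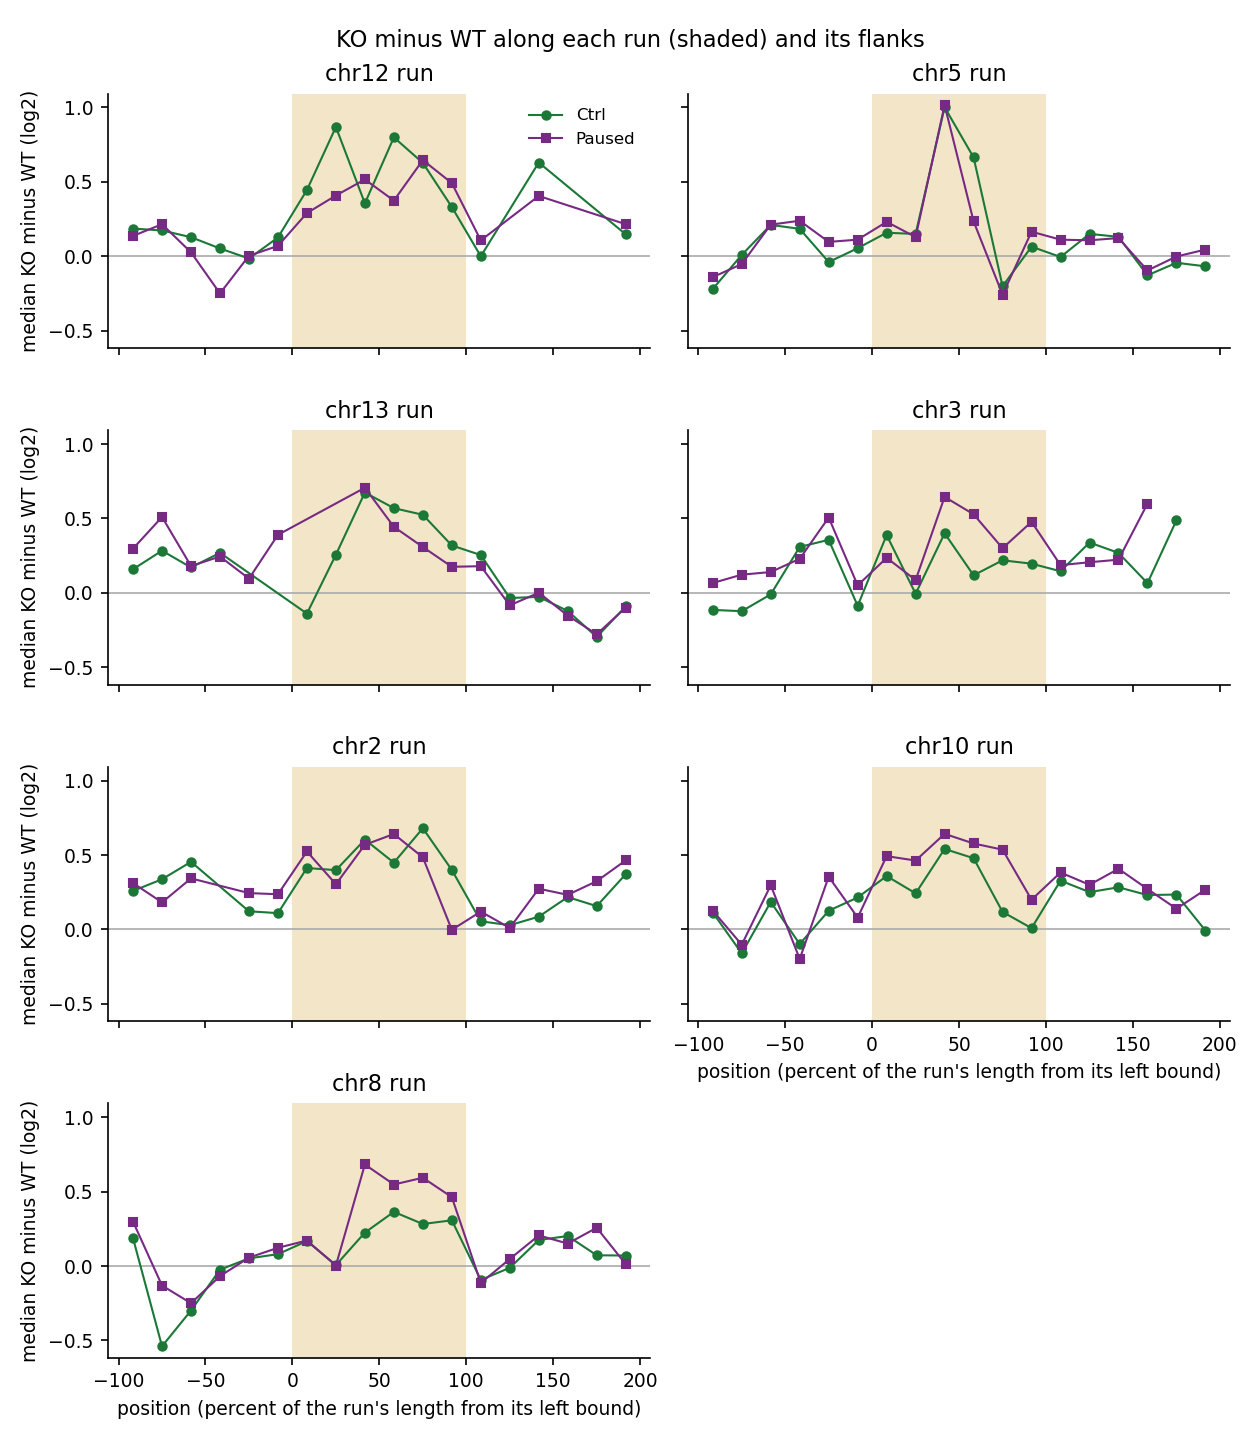
Median KO minus WT (log2) in segments of 1/6 of the run length along each run (shaded) and its flanks, Ctrl and Paused, for segments with at least 3 tested intervals; the horizontal axis is the position relative to the run. The chromosome 5 curve peaks in segment 3 and the other runs are higher over several segments.

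The run levels of the knockout lines differed by less than the spread between their libraries. Both were compared with the same WT libraries, so their values against WT are given side by side and not related. In Ctrl the medians against WT for Smad2_KO1 and Smad2_KO2 were 0.44 and 0.39 on chromosome 12, 0.35 and 0.35 on chromosome 5, 0.47 and 0.41 on chromosome 13, 0.24 and 0.27 on chromosome 3, 0.42 and 0.44 on chromosome 2, 0.33 and 0.29 on chromosome 10, and 0.30 and 0.23 on chromosome 8. In Paused they were 0.44 and 0.37, 0.23 and 0.33, 0.44 and 0.46, 0.54 and 0.44, 0.50 and 0.54, 0.53 and 0.45, and 0.44 and 0.39. The direct difference of run levels, Smad2_KO1 minus Smad2_KO2, was -0.04 to 0.07 over the 14 combinations. The largest was 0.07 ± 0.07 (SE, n = 4 each) in the Ctrl chromosome 8 run. An exact permutation test over the 8 libraries (two-sided, 70 assignments, smallest possible p 0.0286) gave p of 0.343 or more and an adjusted p of 0.9 or more over the 14 tests. These tests do not show that the lines are alike.

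At single intervals limma called 0 of 1037 run intervals in Ctrl and 0 of 963 in Paused between Smad2_KO1 and Smad2_KO2, and 0% of the whole tables. At an unadjusted p under 0.05 there were 23 run intervals in Ctrl (2.22%, against 3.28% of the table) and 19 in Paused (1.97%, against 1.97%). Without any difference a share of 0.05 would be due, so the shares of both tables were low for this contrast. The spread was estimated over all 12 libraries, WT included, and its part in the low shares was not tested. The 0 calls do not show that the lines are alike. No other tool was run for this contrast. The second Paused libraries of both lines did not differ beyond the sampling noise of their reads, with a chi-square per degree of freedom of 1.00, where noise alone gives 1 and the limit was 1.01. These second libraries carry different labels and were kept as separate libraries. The calls without both stand beside the call counts. Other same-numbered pairs of the 2 lines gave 1.03, 1.07 and 1.03 in Paused (replicates 1, 3 and 4) and 1.02 to 1.27 in Ctrl. Pairs of unlike number gave 1.10 to 1.49 in Paused and 1.12 to 1.53 in Ctrl. The tests above took no account of library numbers. Whether same-numbered libraries of the 2 lines are independent was not tested.

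The same run coordinates were used in both treatments, so the places of the runs are shared by construction. The tables were normalized separately, and no test between treatments was made. Intervals of the tables were matched where each covered at least 50% of the other, which gave 783 pairs in the runs. Of these, 560 were above 0 in both tables and 120 below 0 in both. Across these intervals, which share libraries within each table, Pearson's r of the differences was 0.77 and Spearman's rank correlation 0.76, and over 208518 matched intervals of the tables they were 0.74 and 0.72. Among the matched run intervals, 147 were called higher in Ctrl and 229 in Paused, and 98 in both, which is 66.7% of the first and 42.8% of the second. In the tables these shares were 55.4% and 28.2%. The runs were chosen for higher knockout values, which can raise such shares, so nothing is read from them. No matched run interval was called in opposite directions. The Ctrl and Paused medians were furthest apart in the chromosome 3 run, at 0.22 and 0.51.

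**Figure D5:**
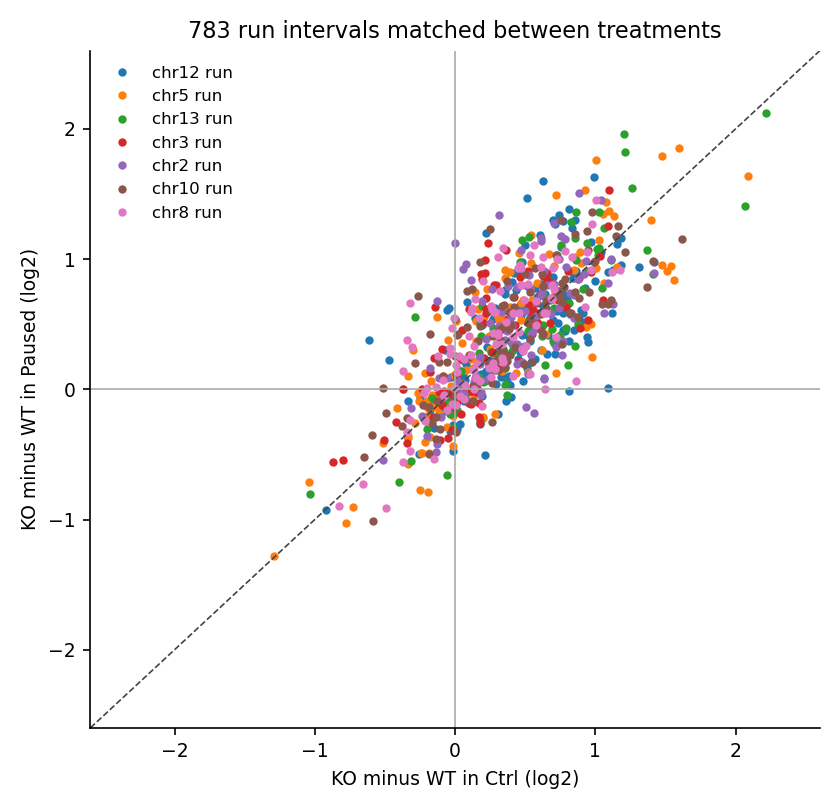
KO minus WT (log2) of the 783 matched run intervals in Ctrl (horizontal) and Paused (vertical). Most points lie in the upper right, and a smaller group lies below 0 in both.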

How the data were processed

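Per the labels' protocols, ATAC-seq libraries were made from 50000 cells and sequenced in pairs. Per the submitters' processing notes the tools include FastQC, Trim Galore, Bowtie2 2.4.1, MACS3 3.0.3 and DiffBind 3.16.0, and the build is mm10. Duplicate handling, the Tn5 shift, multiply mapped reads and pooling before peak calling are not given in the sources used here. The authors deposited 1 table per treatment with normalized signal per interval and library, a log2 fold of the 8 knockout libraries against WT, and its p-value and false discovery rate. Each signal column is a ladder of whole reads divided by 1 factor, so reads were recovered: at least 98.7% (Ctrl) and 98.8% (Paused) of values lay within 0.005 of the ladder. For 4 columns the factor was near 1 (0.994 to 1.007), so the scaling shows little in their smallest values.

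The tests were planned for raw counts, which the tables do not hold, so limma 3.58.1 (R 4.3.3, trended variance) was fitted on log2(value + 1) over all 12 libraries of a table with line as factor. P-values were adjusted by Benjamini-Hochberg over all tested intervals. The fit was tested on simulated data. The members, gene lists and flanks were chosen with earlier results of these data known, and the genes named are the 5 protein-coding genes of each run with the largest summed signal and the listed ones. The intervals named are the strongest, the largest rise and the largest fall of each run, and those at both sides of its ends. Genes and promoters came from RefSeq (GRCm38.p6), with 121 promoters of 102 genes in the runs. Alternatives were other scalings (DESeq2 1.42.0 size factors, TMM, library totals), another pseudocount, no filter, a replicate block, other groupings of the knockouts, and edgeR 4.0.16 or DESeq2 tests on the recovered reads. Smallest p-values are limited by 4 libraries per group.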

Additional observations from a re-analysis of the deposited data

Results flagged for a closer look

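Of 84 groups of 4 libraries checked (run levels and the strongest interval of each run), 6 had a library far from the other 3 by Dixon's ratio, which chance alone gives in about 1 of 20 groups. In Ctrl, replicate 4 was the low library in each of the run levels concerned. WT replicate 4 had -0.33 in the chromosome 10 run, where the other WT libraries had -0.17 to -0.14. Smad2_KO2 replicate 4 had 0.067 in the chromosome 12 run, against 0.15 to 0.16. Smad2_KO1 replicate 4 had 0.022 in the chromosome 3 run, against 0.15 in the others, and 0.0065 in the chromosome 8 run, against 0.15 to 0.18. In Paused, the strongest interval of the chromosome 12 run, at the start of Gm40881, read 732 in Smad2_KO2 replicate 4 against 806 to 813. The strongest interval of the chromosome 8 run, at the start of Nr3c2, read 489 in Smad2_KO1 replicate 2 against 540.3 to 549. Replicate 4 of Smad2_KO1 had the fewest reads of the Ctrl libraries, 11.8 M, and its part in these values was not tested.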

How the results depend on the processing

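All 14 run medians of KO minus WT (7 runs, Ctrl and Paused) stayed above 0 under every alternative and every left-out library. Runs are listed here as chromosomes 12, 5, 13, 3, 2, 10 and 8, and only values that moved by more than the spread between libraries are printed. Minus the table's median, Ctrl gave 0.34 (12) and 0.26 (5), and Paused gave 0.29, 0.18, 0.33, 0.40, 0.39, 0.37 and 0.32. DESeq2 size factors gave 0.35 (12) and 0.26 (5) in Ctrl and 0.31, 0.20, 0.34, 0.41, 0.40 and 0.38 (12 to 10) in Paused. TMM factors gave 0.36 and 0.27, and 0.32, 0.21, 0.35, 0.43, 0.41 and 0.40. Summed values gave 0.29, 0.22, 0.24, 0.21, 0.23 and 0.13 (12, 5, 13, 2, 10, 8) in Ctrl and 0.18, 0.17, 0.20, 0.15, 0.19, 0.29 and 0.20 in Paused. Outside protein-coding genes the values were 0.49 (12) and 0.29 (5) in Ctrl and 0.12 (5), 0.33 (13) and 0.41 (2) in Paused. At or above the table's median level they were 0.33 (12), 0.064 (5), 0.23 (2) and 0.17 (8) in Ctrl and 0.24, 0.10, 0.27, 0.21, 0.19, 0.38 and 0.20 in Paused. With no filter the Paused chromosome 5 run had 0.37.

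Same-numbered libraries of WT and a knockout line did not pair in every comparison. Their correlations were as low as -0.01 in each table, with highest values of 0.06 (Paused) and 0.05 (Ctrl). Between Smad2_KO1 and Smad2_KO2 every same-numbered correlation was positive. Replicates 1 to 4 had 0.09, 0.19, 0.03 and 0.11 with inhibitor, and 0.05, 0.04, 0.008 and 0.11 without it. Knockout pairs of unlike number reached 0.04 with inhibitor and 0.05 without. The main tests between the knockout lines took no account of this pairing. The labels do not tie numbers to a shared batch. With the replicate block the Paused chromosome 3 run had 0.36, and run calls were 196 in Ctrl and 312 in Paused against 180 and 288. The 8 knockout libraries as 1 group gave 362 and 466 run calls, and 49619 and 74734 calls in all against 20159 and 36293. Averaging the knockouts by number gave 34885 calls in Ctrl. DESeq2 on recovered reads gave 98 and 159 run calls and 9791 and 19869 in all. Leaving out library 2 of both lines, added after seeing the data, gave 108 and 165 run calls and 12129 and 18324 in all. The cause was not tested. Leaving out each library gave 0.38 to 0.56 for the Ctrl chromosome 13 run, 0.21 to 0.30 for Ctrl chromosome 3, 0.39 to 0.46, 0.43 to 0.53 and 0.43 to 0.54 for Paused chromosomes 12, 3 and 2, and 127 to 184 and 213 to 294 run calls. Smad2_KO1 against Smad2_KO2 passed in 0 of 322 alternatives (lowest adjusted p 0.691, exact permutation tests; -0.08 to 0.11), and its sign changed in 42.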
